A study of Homo sapiens with 6 samples.

Results

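The genes described here are 10 members of the oxygen-sensing pathway of hypoxia-inducible factor (HIF), chosen by name from the 58735 genes of the count table. They are the HIF alpha subunits HIF1A and EPAS1, their partner ARNT, the ubiquitin ligase subunit VHL, the prolyl hydroxylases EGLN1, EGLN2 and EGLN3, and the marker targets CA9, CA12 and NDRG1. Each name had 1 protein-coding row, and all 10 passed the filter on low counts. RNA was sequenced from SKOV3ip1 cells, an established human ovarian adenocarcinoma line with a genotype labelled wild type. Both groups were transfected with 2 µg of siRNA in a cationic lipid reagent and lysed after 48 h. The control siRNA group and the BARD1 siRNA group held 3 libraries each, numbered as biological replicates. The labels call the material both cells and tumors, while the protocols describe cultured cells. They give neither an oxygen level nor a hypoxic group, and nothing states whether replicates were transfected separately, so p-values measure the spread between these libraries.

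HIF is a dimer of an oxygen-regulated alpha subunit and the constitutive subunit ARNT. When oxygen is present, prolyl hydroxylases of the EGLN family hydroxylate the alpha subunit, VHL then binds it, and the proteasome degrades it. This control acts on protein, so transcript levels of HIF1A and EPAS1 do not report the amount of HIF. At low oxygen the alpha subunit persists and the dimer binds hypoxia response elements, whose core is ACGTG or GCGTG, near target genes such as CA9, NDRG1 and EGLN3.

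Libraries held 16621108 to 17743404 gene counts. BARD1 itself had 644 to 887 counts in control libraries, against 96 to 169 after its own siRNA, so the libraries bore out their labels. The epithelial line markers summed to 4030 to 4419 CPM (counts scaled to library size) in control and 4264 to 4375 CPM in BARD1 siRNA libraries, led by ERBB2, although MUC16, WT1 and CDH1 had at most 17 counts in any library. Of 6 leukocyte markers, 4 (PTPRC, CD3E, CD68 and LYZ) had 0 counts in all 6 libraries. The summed level of 6 endothelial markers was at most 1.59 CPM in control and 2.49 CPM in BARD1 siRNA libraries, and that of 6 fibroblast and pericyte markers at most 11.3 and 12.8 CPM.

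The core motif was looked for in RefSeq promoter windows (GRCh38.p14, 250 bases before to 50 bases after each start), on both strands. Windows were present for 8 of the 10 genes, and VHL and NDRG1 were not examined. The motif stood in a window of 6 of these 8 genes, beside 52.4% of all 27305 genes with a window, and in 6 of their 10 windows, beside 48.4% of all 35116 windows. The sites below are shown because they place the motif at CA9, EGLN1 and EPAS1, which differed between the groups in different directions, and at CA12, which did not pass the test. Capitals mark the motif, read on the strand of the gene.
CA9 (chr9:35673898-35673927, plus strand): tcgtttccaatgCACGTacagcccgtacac
EGLN1 (chr1:231422283-231422312, minus strand): gggccgtggtgtACGTGcagagcgcgcaga
EPAS1 (chr2:46297278-46297307, plus strand): gggcctgccggcGCGTGcccgcccacacac
HIF1A (chr14:61695297-61695326, plus strand): tggctgagagcgGCGTGggctggggtgggg
CA12 (chr15:63382063-63382092, minus strand): gcggatctcaccCACGCctgccagcagctc
EGLN2 (chr19:40799131-40799160, plus strand): cggggcgcggtcACGTGcccaccgggcgag
In CA9 and CA12 the core lies on the opposite strand, which the gene strand shows as CACGT and CACGC. Windows follow RefSeq starts, which can differ from the gene starts in the count table, as in ARNT, CA9, CA12, EPAS1, EGLN1, EGLN2 and EGLN3. The sites shown, except that of HIF1A, therefore lie inside the counted genes. The first base of the motif lay 18 bases before the RefSeq start in CA9, 13 in EGLN1 and 117 in EPAS1. It lay 204 bases before that start in HIF1A, 234 in CA12 and 48 in EGLN2. CA12 held another match 39 bases after its RefSeq start. The EGLN2 match reads as the palindrome CACGTG, an E-box, which contains the core on both strands. ARNT and EGLN3 had no match in these windows. The EGLN3 window, at 33951025 to 33951324 on chromosome 14, lies far from the start of the counted gene at 34462774. A match describes letters only, since no binding was measured.

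With BARD1 siRNA, NDRG1, EPAS1, VHL and HIF1A were higher, and EGLN1 and CA9 were lower. ARNT, EGLN2, EGLN3 and CA12 did not pass the test. NDRG1 rose 6.18-fold and EPAS1 3.02-fold, whereas the change in HIF1A was 1.26-fold and that in EGLN1 1.12-fold. The comparison asks how these genes differ after siRNA against BARD1, which lowered but did not remove BARD1 mRNA, within a study of angiogenesis pathways. In the edgeR quasi-likelihood test at an adjusted p of 0.05, 4 of the 10 were called higher, beside 22% of the 15271 tested genes, and 2 were called lower, beside 20.3%. Together 6 of 10 were called, against 42.3% of all tested genes. The median log2 fold change of the 10 was 0.15, and −0.01 over all tested genes. With upper-quartile scaling the share of higher genes among all called genes went from 51.9% to 41.5%, while the calls of the 10 stayed at 4 higher and 2 lower. For 7 of the 10 genes the libraries of the groups did not overlap, which also held for 50.4% of tested genes.

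**Figure D1:**
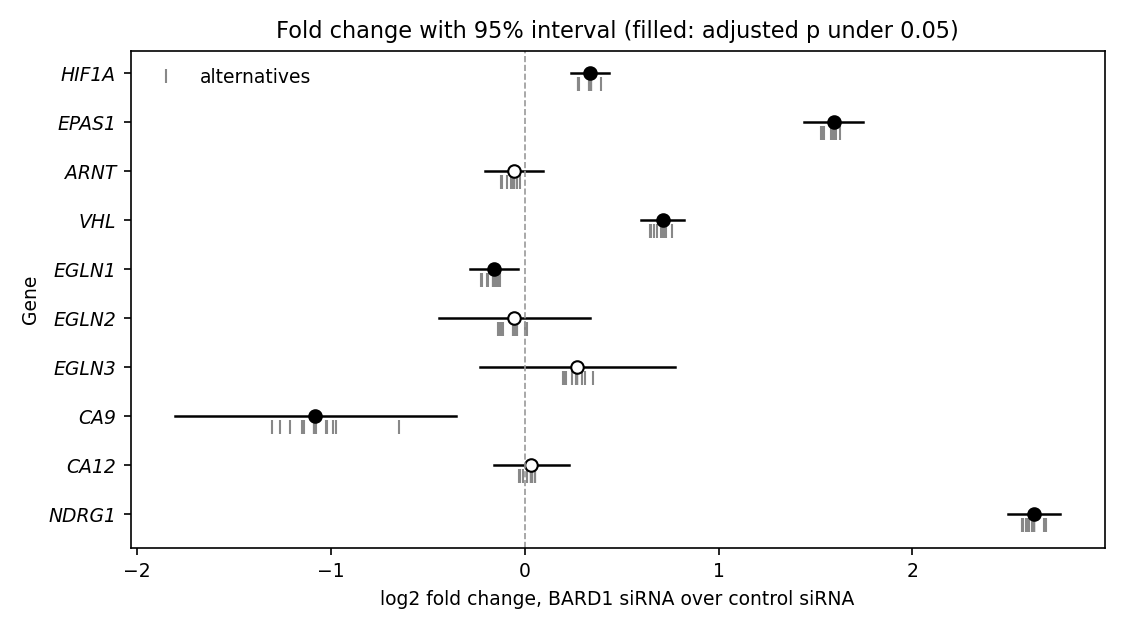
Log2 fold change of each gene (x axis, BARD1 siRNA over control siRNA, n = 3 libraries per group) with its 95% confidence interval from the edgeR fit. Filled circles passed an adjusted p of 0.05, and grey ticks give the 16 alternative analyses. NDRG1 at 2.63 and EPAS1 at 1.59 stand far from 0, and the ticks of CA9 spread from −1.31 to −0.65.

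Among the alpha subunits, HIF1A (ENSG00000100644, GRCh38 chromosome 14, 61695513 to 61748259, plus strand) had the highest level per length of the 10 genes. Its normalised expression was 807, 726 and 861 CPM in the control and 1006, 1018 and 1003 CPM in the BARD1 siRNA libraries. All BARD1 siRNA libraries lay above all control libraries, and the control libraries were the more widely spread. The means were 798 ± 67.7 and 1009 ± 8.01 CPM (SD, n = 3 per group), a log2 fold change of 0.34 (SE 0.05, edgeR adjusted p = 8.59e-08). On the GENCODE 29 annotation 5.14% of its exon bases are shared with other genes, among them the antisense HIF1A-AS1, and neither HIF1A-AS1 nor HIF1A-AS2, an antisense gene that shares no exon bases with it, exceeded 18 counts in any library.

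EPAS1 (ENSG00000116016, chromosome 2, 46293667 to 46386703, plus strand) encodes HIF-2α, the alpha subunit first described in endothelium. It stood at 29.7, 30.5 and 27.2 CPM in the control and at 89.7, 87.2 and 87.2 CPM in the BARD1 siRNA libraries. The groups were far apart, with little spread in either. EPAS1 rose by 1.59 on the log2 scale (SE 0.08, 95% interval 1.44 to 1.75, edgeR adjusted p = 2.71e-24), and its annotated exons overlap no other gene. The 6 endothelial markers summed to 1.16 to 1.59 CPM in control and 1.67 to 2.49 CPM in BARD1 siRNA libraries, and their part in the EPAS1 result was not tested. In bulk RNA a change in the number of cells that express a gene and a change in its RNA per cell cannot be told apart.

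Compared per length, as CPM per kilobase of exon (RPKM), HIF1A transcripts outnumbered EPAS1 transcripts in both groups. HIF1A stood at 155 ± 13.1 RPKM and EPAS1 at 3.99 ± 0.235 RPKM with control siRNA, against 196 ± 1.56 and 12.1 ± 0.197 RPKM with BARD1 siRNA (SD, n = 3). EPAS1 made up 2.53%, 2.88% and 2.18% of the summed alpha subunit level in the control libraries and 5.92%, 5.70% and 5.78% in the BARD1 siRNA libraries. The share was thus higher in every BARD1 siRNA library, yet HIF1A kept 94.2% ± 0.111 of the sum. The within-library log2 ratio of EPAS1 to HIF1A counts, which no scaling factor enters, was higher by 1.25 with BARD1 siRNA. The two-sided exact permutation p was 0.10, the smallest that 3 against 3 libraries allow, and 0.117 after Benjamini-Hochberg adjustment over the 7 ratios computed.

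ARNT (ENSG00000143437, chromosome 1, 150809705 to 150876768, minus strand), the shared dimer partner, did not pass the test. Its libraries stood at 58.4, 55.2 and 60.8 CPM with control siRNA and 54.6, 56.3 and 57.0 CPM with BARD1 siRNA. The groups overlapped. The log2 fold change was −0.06 with a 95% interval from −0.20 to 0.09 (edgeR adjusted p = 0.589), so a change of the size seen in HIF1A lies outside the interval. The log2 ratio of ARNT to HIF1A counts was lower by 0.40 in the BARD1 siRNA libraries, with no overlap (exact permutation p = 0.10, adjusted 0.117).

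**Figure D2:**
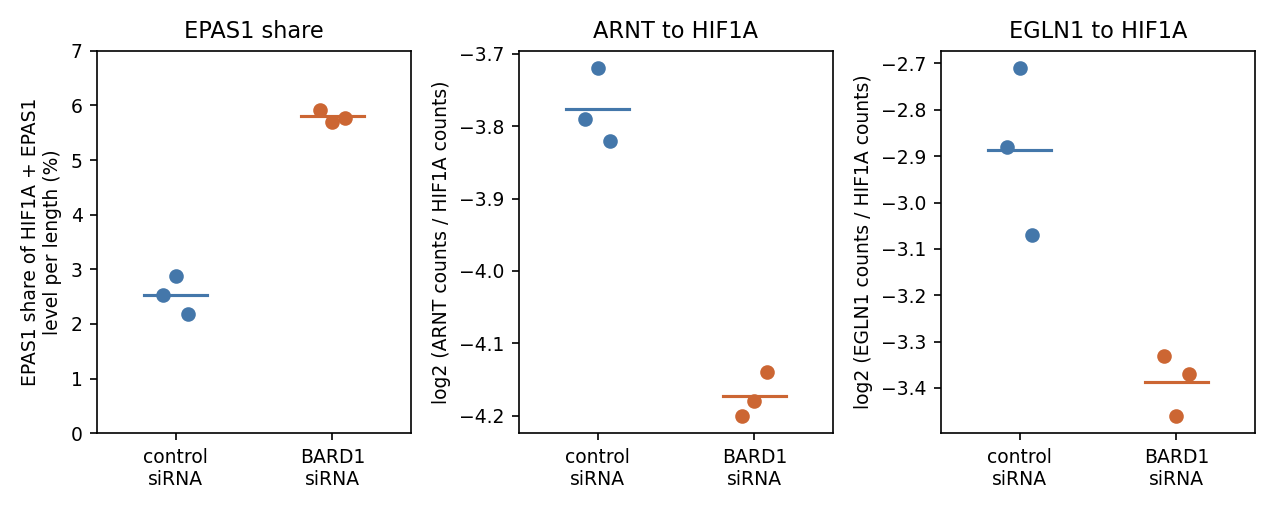
Left, EPAS1 as a percentage of the summed HIF1A and EPAS1 level per length; middle and right, log2 ratios of ARNT and EGLN1 counts to HIF1A counts within each library. Points are libraries and bars are means (n = 3 per group). The EPAS1 share is 2.18% to 2.88% with control siRNA and 5.70% to 5.92% with BARD1 siRNA, and both ratios to HIF1A are lower in every BARD1 siRNA library.

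VHL (ENSG00000134086, chromosome 3, 10141008 to 10152220, plus strand) is the substrate receptor that binds hydroxylated alpha subunits. It was at 150, 139 and 133 CPM in control and at 227, 240 and 225 CPM in BARD1 siRNA libraries. Every BARD1 siRNA library exceeded every control library. VHL rose 1.64-fold (log2 fold change 0.71, SE 0.06, edgeR adjusted p = 5.18e-16), and no other annotated gene overlaps it. The genes of its ligase partners, named after their values were seen, were not called higher. The log2 fold changes of ELOB, ELOC and CUL2 were −0.01, 0.03 and 0.00 (edgeR adjusted p = 0.914, 0.715 and 0.970), and RBX1, the RING subunit of the ligase, fell by 0.28 on the log2 scale (edgeR adjusted p = 0.00179).

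EGLN1 (ENSG00000135766, chromosome 1, 231363751 to 231425044, minus strand), known as the main oxygen sensor of the EGLN family, made up most of the hydroxylase transcript as counted. The limit on the EGLN2 level given below applies to that share. EGLN1 values were 110, 111 and 103 CPM with control siRNA and 100, 92.7 and 97.1 CPM with BARD1 siRNA. The groups did not overlap, but the gap between them was narrow. EGLN1 fell by 0.16 on the log2 scale (SE 0.06, edgeR adjusted p = 0.0313). Its call was lost when any 1 of 4 libraries was left out, at an edgeR adjusted p of 0.0897 without control siRNA replicate 1, 0.0636 without control siRNA replicate 2, 0.165 without BARD1 siRNA replicate 2 and 0.0695 without BARD1 siRNA replicate 3.

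EGLN2 (ENSG00000269858, chromosome 19, 40798996 to 40808433, plus strand) and EGLN3 (ENSG00000129521, chromosome 14, 33924231 to 34462774, minus strand) encode the other hydroxylases, and EGLN3 is itself a HIF target. EGLN2 stood at 6.77, 6.34 and 5.49 CPM in control and 5.85, 5.51 and 6.55 CPM in BARD1 siRNA libraries. These ranges overlapped (log2 fold change −0.05, 95% interval −0.44 to 0.34, edgeR adjusted p = 0.853). Of its exon bases 30.6% are shared, on the same strand, with the readthrough gene RAB4B-EGLN2, which was listed at 0 counts in 5 libraries and at 4 in BARD1 siRNA replicate 3. RAB4B, the other gene of the readthrough, had at most 5 counts in any library. The labels do not state how reads in shared exons were assigned, so the EGLN2 level is uncertain. For EGLN3 the control libraries held 63, 50 and 56 counts and the BARD1 siRNA libraries 59, 63 and 74. After scaling the groups did not overlap, at 2.94 to 3.59 and 3.63 to 4.25 CPM. The test did not call EGLN3 (log2 fold change 0.27, edgeR adjusted p = 0.412), and the 95% interval ran from −0.23 to 0.77.

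Per length, EGLN1 held 91.5% ± 0.542 of the summed EGLN level with control siRNA and 90.3% ± 0.731 with BARD1 siRNA (SD, n = 3). The sum was 16.2 ± 0.728 RPKM and 14.7 ± 0.562 RPKM, respectively. The uncertain EGLN2 level enters these shares and sums, and their SD does not cover it. Level per length also divides by all annotated exons of a gene, whichever of them the cells express. The log2 ratio of EGLN1 to HIF1A counts was lower by 0.50 with BARD1 siRNA and that of EGLN3 to EGLN1 counts was higher by 0.43, in both cases without overlap of the libraries (exact permutation p = 0.10, adjusted 0.117). The ratio of EGLN2 to EGLN1 overlapped between the groups, with a difference of 0.10 (exact permutation p = 0.40).

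**Figure D3:**
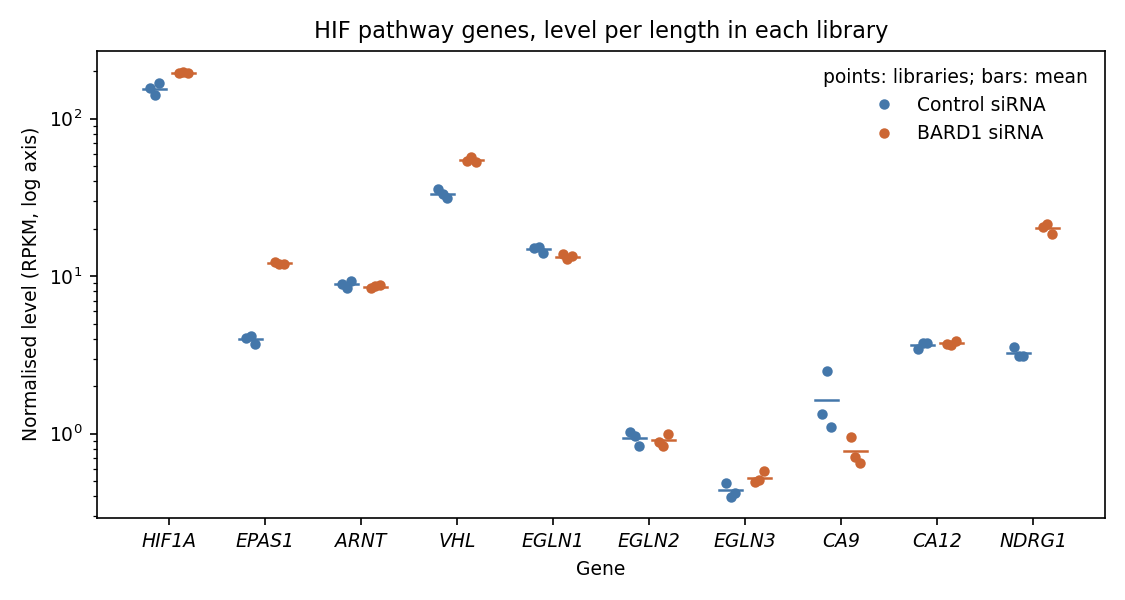
Level per length (y axis, RPKM on a log axis) of each gene in every library, with group means as bars (n = 3 per group). HIF1A is the highest at 155 and 196 RPKM and EGLN3 the lowest at 0.436 and 0.526 RPKM, and NDRG1 goes from 3.26 to 20.2 RPKM.

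NDRG1 (ENSG00000104419, chromosome 8, 133237171 to 133302022, minus strand), a stress-response gene induced by hypoxia and by other stimuli, had the largest change of the 10. The control libraries held 610, 524 and 550 counts, and the BARD1 siRNA libraries 3262, 3545 and 3188. In CPM these were 34.7, 30.8 and 30.5 against 201, 210 and 183, and the groups were widely separated. The log2 fold change was 2.63 (SE 0.07, 95% interval 2.49 to 2.76, edgeR adjusted p = 3.04e-36). A call with at least a 2-fold increase was made for 4.48% of all tested genes, and NDRG1 and EPAS1 were the 2 of the 10 that reached it. No annotated gene overlaps NDRG1.

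CA9 (ENSG00000107159, chromosome 9, 35673856 to 35681159, plus strand) encodes a membrane carbonic anhydrase widely used as a hypoxia marker, and it went the opposite way from NDRG1. It had 39, 71 and 33 counts in the control libraries, compared with 26, 20 and 19 in the BARD1 siRNA libraries. The control libraries were all higher, but replicate 2 stood well above the other two. The mean CA9 level fell from 2.74 ± 1.25 to 1.29 ± 0.271 CPM (SD, n = 3), or by 1.08 on the log2 scale (SE 0.36, 95% interval −1.80 to −0.35, edgeR adjusted p = 0.0126). Without control siRNA replicate 2 the log2 fold change was −0.65 and the call was lost (edgeR adjusted p = 0.246), and it was also lost without BARD1 siRNA replicate 3, at −0.97 (edgeR adjusted p = 0.0536).

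The CA9 locus overlaps ARHGEF39, a gene on the opposite strand. They share 643 of the 1670 exon bases of CA9, or 38.5%. In the control libraries 538, 510 and 473 counts fell on ARHGEF39, and in the BARD1 siRNA libraries 216, 176 and 268. It held more counts than CA9 in every library, and it also fell, by 1.15 on the log2 scale (SE 0.12, edgeR adjusted p = 1.53e-11). Since the strand setting of the counting is not given, reads from the shared exons cannot be told apart, and the part of ARHGEF39 in the CA9 result was not tested.

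**Figure D4:**
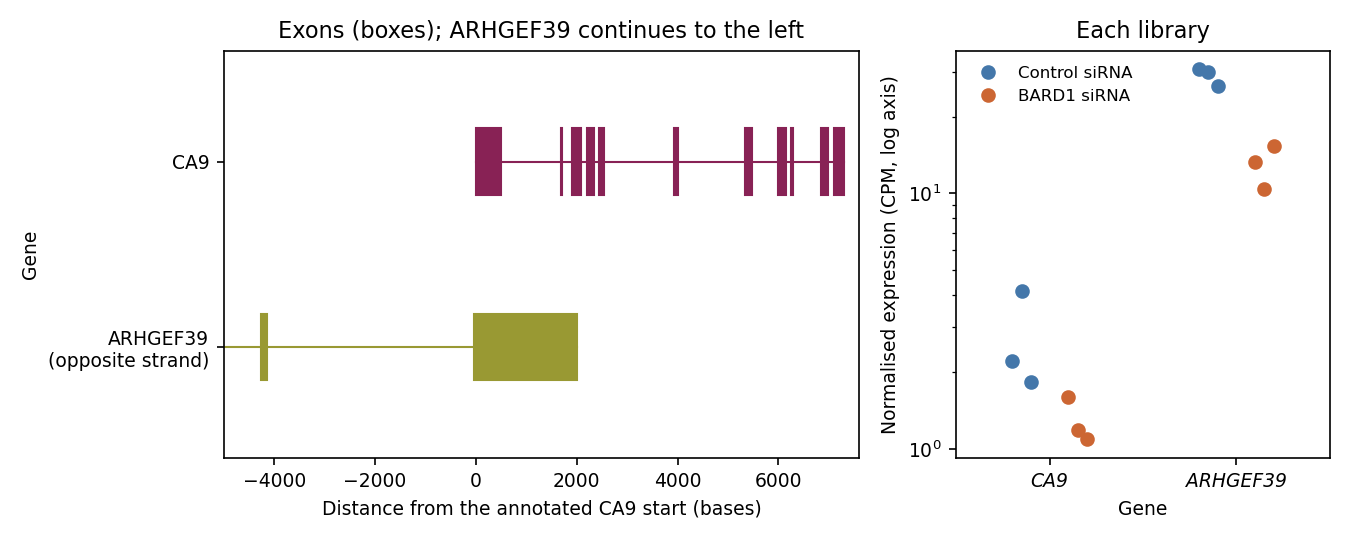
Left, annotated exons (boxes) of CA9 and of ARHGEF39 on the opposite strand, by distance in bases from the CA9 start; right, CPM (log axis) of both genes in each library, 3 per group. The rightmost ARHGEF39 exon spans the 5′ exons of CA9, and both genes are lower in the BARD1 siRNA libraries.

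CA12 (ENSG00000074410, chromosome 15, 63321378 to 63382161, minus strand), another membrane carbonic anhydrase regulated by hypoxia in some tumours, did not pass the test. It stood at 25.3, 27.6 and 27.5 CPM in control and 27.3, 26.8 and 28.3 CPM in BARD1 siRNA libraries. The groups overlapped (log2 fold change 0.04, 95% interval −0.16 to 0.23, edgeR adjusted p = 0.808). The log2 ratio of CA12 to CA9 counts was higher by 1.03 with BARD1 siRNA and that of NDRG1 to CA9 by 3.62 (exact permutation p = 0.10, adjusted 0.117, for each). These p-values are the smallest the design allows, and the limits on CA9 given above apply to both ratios.

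Ordered by level per length in the control libraries, the genes ran from HIF1A, VHL, EGLN1 and ARNT through EPAS1, CA12 and NDRG1 to CA9, EGLN2 and EGLN3. Libraries of EPAS1 and CA12 overlapped, as did those of CA12 and NDRG1, at means of 3.99, 3.67 and 3.26 RPKM. In the BARD1 siRNA libraries NDRG1 followed HIF1A and VHL at 20.2 ± 1.39 RPKM, and EPAS1 stood above ARNT. There the neighbours that overlapped were EGLN2 and CA9, at 0.908 and 0.774 RPKM. The uncertain EGLN2 level also limits its place in both orders.

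Other genes of the pathway were taken from lists of named genes. Of 16 genes that modify, degrade or assist HIF, 15 were tested, and 1 was higher and 5 lower, or 6.67% and 33.3%, beside 22% and 20.3% of all tested genes (median log2 fold change −0.08, against −0.01 over all tested genes). CITED2, which competes with HIF1A protein for the coactivators EP300 and CREBBP, fell from 38.7 ± 1.18 to 21.0 ± 2.75 CPM (edgeR adjusted p = 1.03e-10). SIAH2, a ubiquitin ligase that acts on prolyl hydroxylases, rose from 56.0 ± 0.993 to 82.5 ± 4.22 CPM (edgeR adjusted p = 1.30e-09). The ARNT paralog ARNT2 fell by 0.33 and the transmembrane prolyl hydroxylase gene P4HTM by 0.39 on the log2 scale (edgeR adjusted p = 0.00639 and 0.0267), although the P4HTM libraries of the groups overlapped. HIF1AN, the asparaginyl hydroxylase of HIF, did not pass at 0.15 (edgeR adjusted p = 0.165), and HIF3A had 0 counts in all 6 libraries.

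Of 40 other HIF targets, 37 were tested. There were 18 higher and 6 lower, or 48.6% and 16.2%, beside 22% and 20.3% of all tested genes, with a median log2 fold change of 0.23. The largest changes were those of DDIT4, an inhibitor of mTORC1, at 2.24, the repressor BHLHE40 at 1.99, and VEGFA at 1.57, together with the peptide hormone ADM, which rose 3.24-fold. Further genes, chosen after their values were seen, show the spread among targets. The mitophagy receptor BNIP3L rose by 0.31, the collagen prolyl hydroxylase P4HA2 by 0.62 and the lysyl oxidase LOX by 0.91 on the log2 scale (edgeR adjusted p = 0.000289, 3.12e-10 and 2.31e-05). The 6 lower targets were led by the glycolytic enzyme gene LDHA, which fell by 0.68, the mitochondrial protein gene FAM162A by 0.64 and the lysyl hydroxylase PLOD2 by 0.47 (edgeR adjusted p = 7.01e-19, 3.14e-07 and 2.01e-05). The other three were the pyruvate dehydrogenase kinase PDK3 and the glycolytic enzyme genes ENO1 and PGK1, which fell by 0.36, 0.25 and 0.23 (edgeR adjusted p = 0.0114, 2.25e-06 and 5.48e-05). BNIP3, PDK1, SLC2A1 and ANKRD37, which are common hypoxia markers, did not pass, at −0.17, −0.16, 0.04 and 0.42 (edgeR adjusted p = 0.0597, 0.165, 0.611 and 0.490). The called targets of HIF thus went in both directions in these libraries, but more were higher (18) than lower (6). With upper-quartile factors, or with library size alone, 17 were called higher and 9 lower. CA9 and NDRG1 also differed in direction, and the limits on CA9 given above apply.

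The list of carbonic anhydrases and acid-base transporters had 11 tested genes of 20, with 5 higher and 1 lower, or 45.5% and 9.09%, beside 22% and 20.3% of all tested genes (median −0.03). The cytosolic carbonic anhydrase CA13 rose from 6.27 ± 1.23 to 12.4 ± 1.52 CPM (edgeR adjusted p = 1.83e-06). The bicarbonate transporter SLC4A7 and the lactate exporter SLC16A3 rose by 0.57 and 0.37 on the log2 scale (edgeR adjusted p = 3.04e-10 and 0.00159). The only gene of the list called lower was the lactate transporter SLC16A1, which fell by 0.14 (edgeR adjusted p = 0.0323). CA2, named after its value was seen, did not pass at −0.39 (edgeR adjusted p = 0.213).

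Among the relatives of NDRG1 and the SGK kinases that phosphorylate its protein, 6 genes were tested, with 2 higher and 2 lower, or 33.3% each, and with so few genes these counts are near the 22% and 20.3% of all tested genes. NDRG4 rose from 8.47 ± 0.842 to 32.2 ± 0.833 CPM (edgeR adjusted p = 6.80e-20), whereas NDRG3 fell by 0.35 on the log2 scale (edgeR adjusted p = 2.03e-05) and NDRG2 did not pass, at −0.17. SGK2 fell by 1.07 and SGK3 rose by 0.53 (edgeR adjusted p = 1.52e-07 and 0.000124), while SGK1 did not pass, at 0.07.

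**Figure D5:**
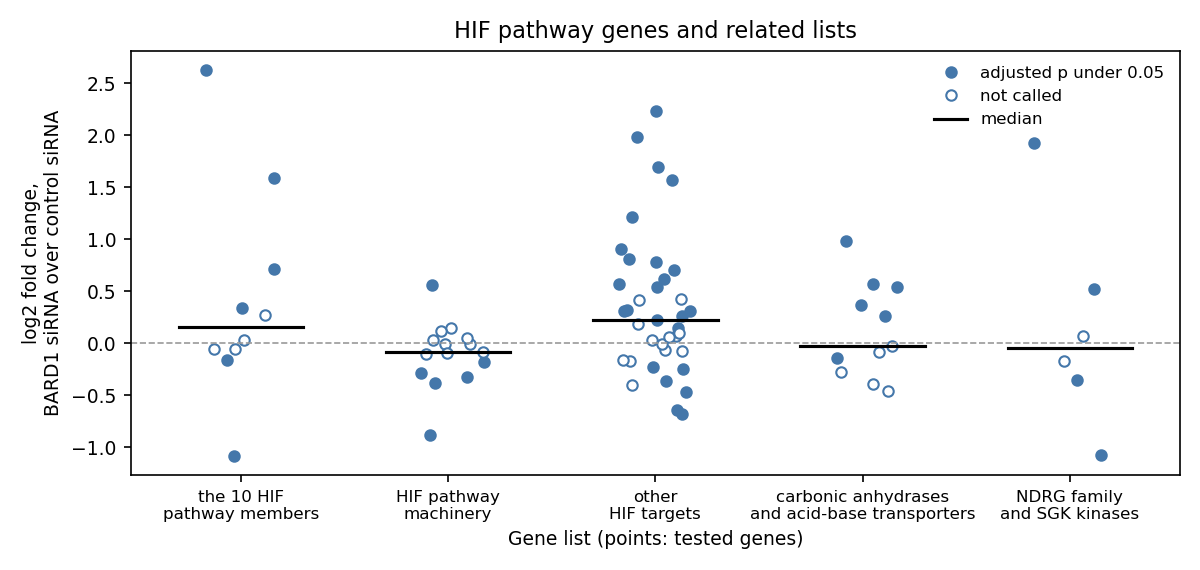
Log2 fold change (y axis, BARD1 siRNA over control siRNA) of the tested genes in each list. Filled points passed an adjusted p of 0.05, and black bars are medians. The 37 other HIF targets have 18 higher and 6 lower genes, and the 15 machinery genes have 1 higher and 5 lower.

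The expression profiles most like those of NDRG1 and CA9 were sought among the 10835 tested protein-coding genes whose log2 CPM averaged 2 or more, by the root mean square difference of log2 CPM over the 6 libraries after centring on the control mean. For NDRG1 these were the aldo-keto reductase AKR1C1, the Wnt receptor FZD8 and the EGF receptor ligand AREG, at differences of 0.09, 0.10 and 0.12 (log2). Their log2 fold changes were 2.75, 2.67 and 2.63, and with this centring a close profile is largely one with a similar fold change. AREG averaged 2.77 CPM in control and 17.2 CPM in BARD1 siRNA libraries, so it passed the limit through the BARD1 siRNA group. AKR1C1 has near-identical copies, so its counts are uncertain. For CA9 they were FAT2, AP1M2 and AC073111.5, at 0.22, 0.25 and 0.25. FAT2 averaged 5.42 CPM in control and 3.00 CPM in BARD1 siRNA libraries, and AC073111.5 averaged 6.27 and 3.17 CPM. Both thus passed the limit through the control group. CA9 itself lies below that limit, so genes at its level were not searched. The CA9 matches were looser than those of NDRG1. Per library CA9 had 19 to 71 counts and NDRG1 524 to 3545, and the part of count level was not tested.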

How the data were processed

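The values deposited by the authors are unnormalised counts, 1 whole number per gene and library. HISAT2, CASAVA and the build GRCh38 (hg38) are named per the submitters' processing notes. No source used here names the counting program, the annotation release or the strand setting. The deposited gene length, in bases, equals the merged exon length of GENCODE 29 for all 10 genes and served for RPKM. Counts were tested with edgeR 4.0.16 in R 4.3.3 (robust glmQLFit and glmQLFTest, TMM factors, group alone, filterByExpr with a minimum count of 10 and total of 15), with Benjamini-Hochberg adjustment over 15271 genes. CPM and RPKM use TMM-scaled library sizes. SE is the absolute log2 fold change over the square root of F, and 95% intervals use the t quantile. Ratios are log2 of counts plus 0.5. The test was checked on simulated counts. Replicates of a group differed by more than counting noise (chi-square per degree of freedom 3.34 to 8.32).

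The genes and lists were chosen with earlier results of these data known. Named were the 10 genes, BARD1, up to 4 called genes per list with the largest absolute change, and the 3 profiles closest to the called genes with the highest and the lowest log2 fold change. HIF1AN, HIF3A, RBX1, SLC16A1, NDRG2, SGK1 and genes said to be named after their values were seen lie outside this rule. The fit was repeated with RLE or upper-quartile factors, with library size alone, DESeq2 1.42.0, limma-voom (limma 3.58.1), other filters, protein-coding genes, a replicate block, no robust estimation, ratios with 5 added, and leaving out each library. Protein sequences were not used here. A gene that the naming rule selects is not reported here.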

Additional observations from a re-analysis of the deposited data

How the results depend on the processing

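HIF1A, EPAS1, VHL and NDRG1 kept their direction and call in all 16 alternatives, and ARNT, EGLN2, EGLN3 and CA12 were called in none. EGLN1 and CA9 kept their direction and were called in 12 and 14 of 16. With each library left out in turn, 0 to 2 of the 10 genes were called lower and 0 to 1 of the carbonic anhydrase and acid-base list. These fits have fewer samples, and the cause of each lost call was not tested. Expression values showed no pairing by replicate number: deviations from the group means of same-numbered libraries correlated at −0.01, −0.02 and −0.02. Such correlations cannot show whether same-numbered libraries were handled together, which is not stated. With the replicate block 3390 genes were higher and 3122 lower, against 3355 and 3107, the 10 genes kept 4 higher and 2 lower calls, and CA9 was at −1.02. Upper-quartile factors gave 2815 higher and 3975 lower genes. With these factors 1 gene of the HIF machinery list was called higher and 7 lower. Counts of 19 to 74 per library limit CA9 and EGLN3.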
